A study of Mus musculus with 10 samples.

Results

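The genes described here are 32 genes of the DNA damage response and of DNA repair, measured in mouse oocytes. They were chosen by gene symbol from a list of checkpoint, homologous recombination, end joining, mismatch and excision repair genes, and all 32 were found among the 18493 genes of the deposited count table. Libraries were made by SMART-seq2, which copies polyadenylated RNA of very small samples into cDNA over its whole length and amplifies that cDNA before sequencing. Oocytes from the ovary fell into 3 groups, spermidine (n = 4 libraries, marked as a rescue), aged (n = 3) and young (n = 3, marked as controls). Spermidine belongs to the polyamines, small molecules found in all cells, and the design text presents it as a treatment of aged oocytes. The labels give no strain, age, dose, route or oocyte number for any group, and nothing on whether libraries came from separate animals, so each p-value weighs a difference only against the spread among these libraries, and that spread may be technical.

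Cells meet DNA damage in layers. Sensor kinases detect broken or single-stranded DNA and activate checkpoint kinases and p53 family proteins, which halt the cell cycle or remove the cell. Repair itself depends on the lesion, with homologous recombination copying an intact template across a break, end joining sealing the ends directly, and mismatch, base excision and nucleotide excision repair replacing altered bases. Oocytes stay arrested in meiotic prophase for much of the life of the female and carry maternal transcripts into the early embryo. Such transcripts can serve the oocyte and the embryo, and neither role was measured here.

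Libraries held 24222185 to 28730790 counts, and levels are given as CPM, the share of a gene in the counts of its library scaled to a common total. Of the 32 genes, 31 passed the filter on low counts and were tested, the exception being Gadd45g. The oocyte markers, among them Gdf9 and Zp3, summed to between 17557 CPM in a spermidine library and 35040 CPM in another, and all 10 were tested. The 10 granulosa and cumulus markers together gave 19.3 to 27.2 CPM in any library, and Amh, the hormone gene of granulosa cells, had 1 count in spermidine libraries together and 0 in aged and in young libraries. Of the 5 granulosa markers that could be tested, Fshr (1.79, adjusted p = 0.0125) and Nr5a2 (0.61, adjusted p = 0.0481) were higher on the log2 scale in aged than in young oocytes. Kitl (0.84, adjusted p = 0.0968) leaned higher, and Inha (-0.81, adjusted p = 0.434) and Cyp19a1 (-0.43, adjusted p = 0.135) lower, without passing. The summed granulosa and cumulus markers overlapped, at 20.0 to 23.7 CPM in aged libraries and 19.3 to 23.1 CPM in young libraries. Nr5a2 was also higher in spermidine than in young oocytes (0.78, adjusted p = 0.0297). Of the oocyte markers, Ddx4 was lower in spermidine than in aged oocytes (-1.13, adjusted p = 0.0221) and higher in aged than in young oocytes (1.57, adjusted p = 0.00235), where Figla was lower (-0.56, adjusted p = 0.0271). Theca and stromal markers summed to 0.917 to 3.82 CPM. Blood and immune markers summed to 0.810 to 1.34 CPM in spermidine libraries, 0.697 to 8.48 CPM in aged libraries and 1.08 to 19.8 CPM in young libraries, and none of the tested theca or blood markers passed by edgeR. The part of these markers in the results was not tested. Aged replicate 1 stood apart. Across all tested genes its deviations correlated with transcript length at a Spearman rho of 0.479, against 0.200 in spermidine replicate 1. The other 8 libraries ran from -0.263 to 0.0262. Among them, aged replicates 2 and 3 had 0.0262 and 0.0161, and the young libraries -0.263, -0.214 and -0.125. Aged and young libraries thus did not overlap in this value even without aged replicate 1. Genes are not independent replicates, and these values describe the libraries.

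Levels per kilobase of transcript differed widely across the list. Chek1, which encodes the checkpoint kinase that acts downstream of Atr, was the most abundant at 131 CPM per kilobase over all libraries. It was followed by Xrcc5 at 69.7 CPM per kilobase and Xrcc6 at 16.0 CPM per kilobase, the genes of the Ku heterodimer that binds broken ends, and by Rad50 at 15.4 CPM per kilobase. The tumour suppressor gene Trp53 came next, at 10.7 CPM per kilobase. At the other end, above only Gadd45g, were the cell cycle inhibitor gene Cdkn1a at 0.190 CPM per kilobase, Atm at 0.276 CPM per kilobase and Prkdc, the catalytic subunit of DNA-dependent protein kinase, at 0.300 CPM per kilobase. The lengths are those of the longest coding transcript in an annotation, and the isoform present in oocytes was not measured.

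**Figure D1:**
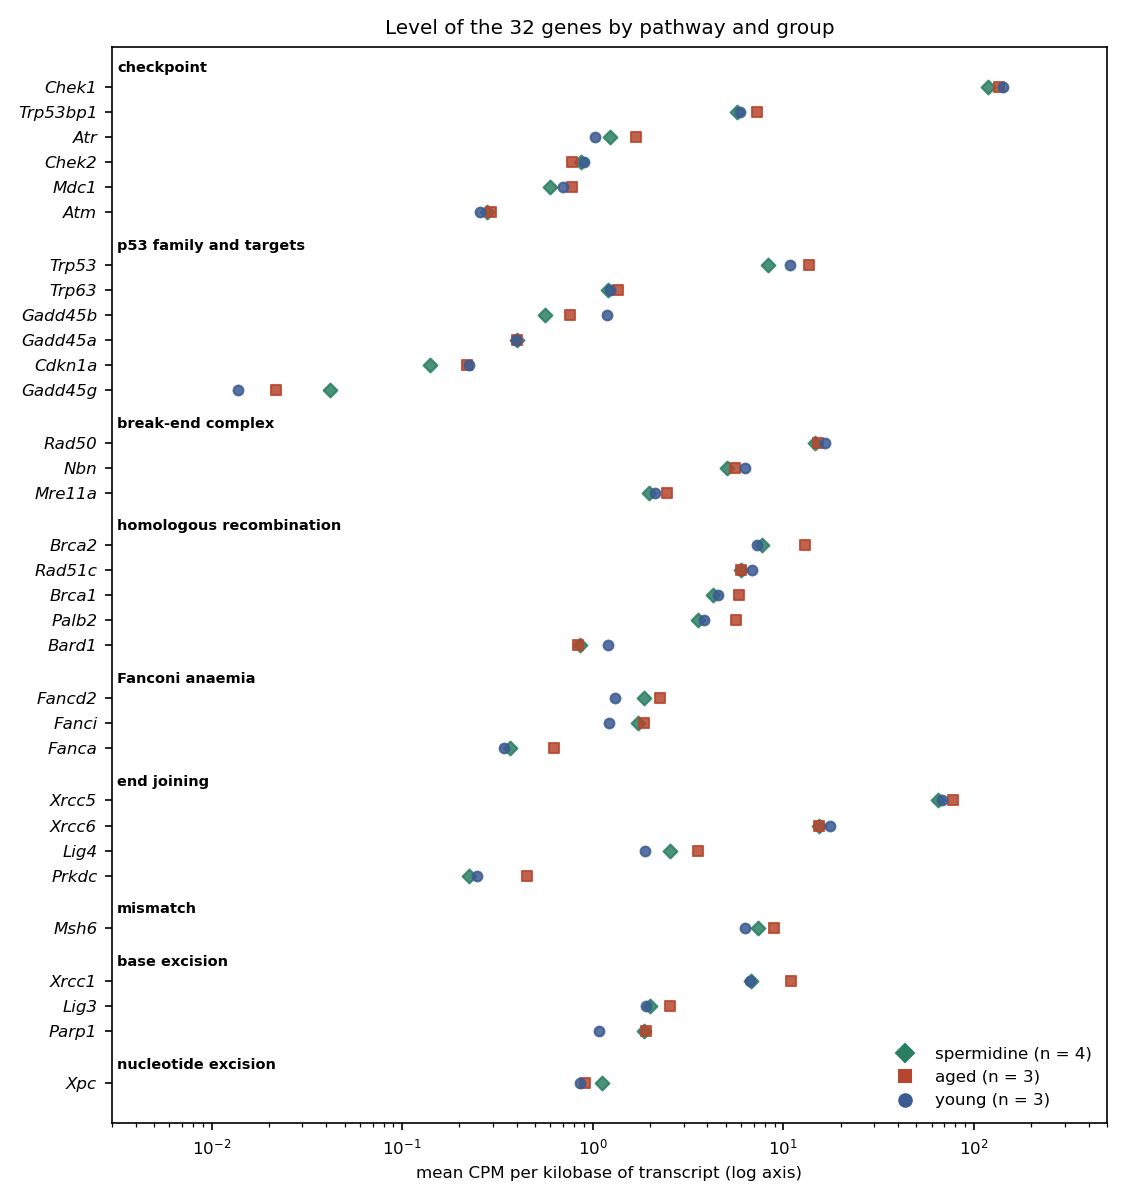
Mean level of each of the 32 genes, in CPM per kilobase of transcript on a log axis, with 1 symbol for each of the spermidine (n = 4), aged (n = 3) and young (n = 3) groups and genes ordered by level within each pathway. Chek1 and Xrcc5 lie above every other gene in all 3 groups, and Gadd45g lies lowest at a total of 5, 2 and 1 counts in spermidine, aged and young libraries.

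Between aged and young oocytes, 3 of the 31 tested genes rose in aged oocytes and 0 fell, while 28 did not pass. The 3 were Parp1, which encodes the sensor of DNA strand breaks poly(ADP-ribose) polymerase, Lig4, the ligase of end joining, and Brca2, a tumour suppressor gene of homologous recombination. A gene passed at a Benjamini-Hochberg adjusted p under 0.05 in edgeR's quasi-likelihood test over 12315 genes. The share of the list that rose, 9.68%, was close to that of all genes tested, of which 9.71% rose. Another 8.06% of all genes fell, and 17.8% passed in either direction. These were 1196 genes higher and 993 lower, or 1236 and 405 with scaling by total counts, under which the same 3 members rose. The median log2 fold change was 0.21 over the 31 genes and 0.10 over all genes, and 22 of the 31 values lay above 0. With aged replicate 1 left out the medians were 0.02 and 0.01, and 18 of the 31 values lay above 0. An unadjusted p under 0.05 was found for 9 of the 31, and for 34.7% of all genes. Groups did not overlap for 12 of the 31 genes, or 38.7%, against 40.0% of all genes. Aged libraries were the higher ones for 10 of the 31 genes (32.3%), against 21.1% of all genes. They were the lower ones for 2 of the 31 (6.45%), against 18.8% of all genes.

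Between spermidine and aged oocytes, 0 of the 31 genes passed by edgeR. The background was small too, with 4.86% of all genes passing, 2.42% as higher with spermidine and 2.44% as lower. Of the 31 genes, 8 (25.8%) had an unadjusted p under 0.05, each lower with spermidine, against 24.2% of all genes in either direction. DESeq2 called 3 of the 31 lower, Trp53, Brca2 and Palb2, and 5.94% of all genes to which it gave an adjusted p. The values leaned below 0, with 26 of 31 negative and a median of -0.28, against 6471 of 12315 and a median of -0.03 over all genes. When aged replicate 1 was left out, 20 of 31 were negative, and the medians were -0.15 over the 31 genes and 0.03 over all genes. Both comparisons share the aged libraries, so a high aged value enters the 2 with opposite signs. Between spermidine and young oocytes, only Parp1 passed, as higher with spermidine, where 5.36% of all genes passed, 3.44% as higher and 1.92% as lower (424 and 236 genes, or 605 and 126 with scaling by total counts). That comparison does not use the aged mean, though the aged libraries entered its filter, scaling and estimate of spread. Its median was -0.06 over the 31 genes and 0.04 over all genes, with 18 of 31 and 5582 of 12315 values negative. Without aged replicate 1 the medians were -0.10 and 0.004, with 19 of 31 negative. Without aged replicate 1 and spermidine replicate 1 together they were -0.09 and 0.007, with 23 of 31 negative. Groups did not overlap for 4 genes (12.9%) between spermidine and aged oocytes, against 19.9% of all genes; all 4 were lower with spermidine, as were 8.49% of all genes, and 11.4% were higher. They did not overlap for 5 genes (16.1%) between spermidine and young oocytes, against 21.0% of all genes. Of those 5, 3 were higher with spermidine (9.68% of the 31) and 2 lower (6.45%), beside 12.1% and 8.92% of all genes.

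**Figure D2:**
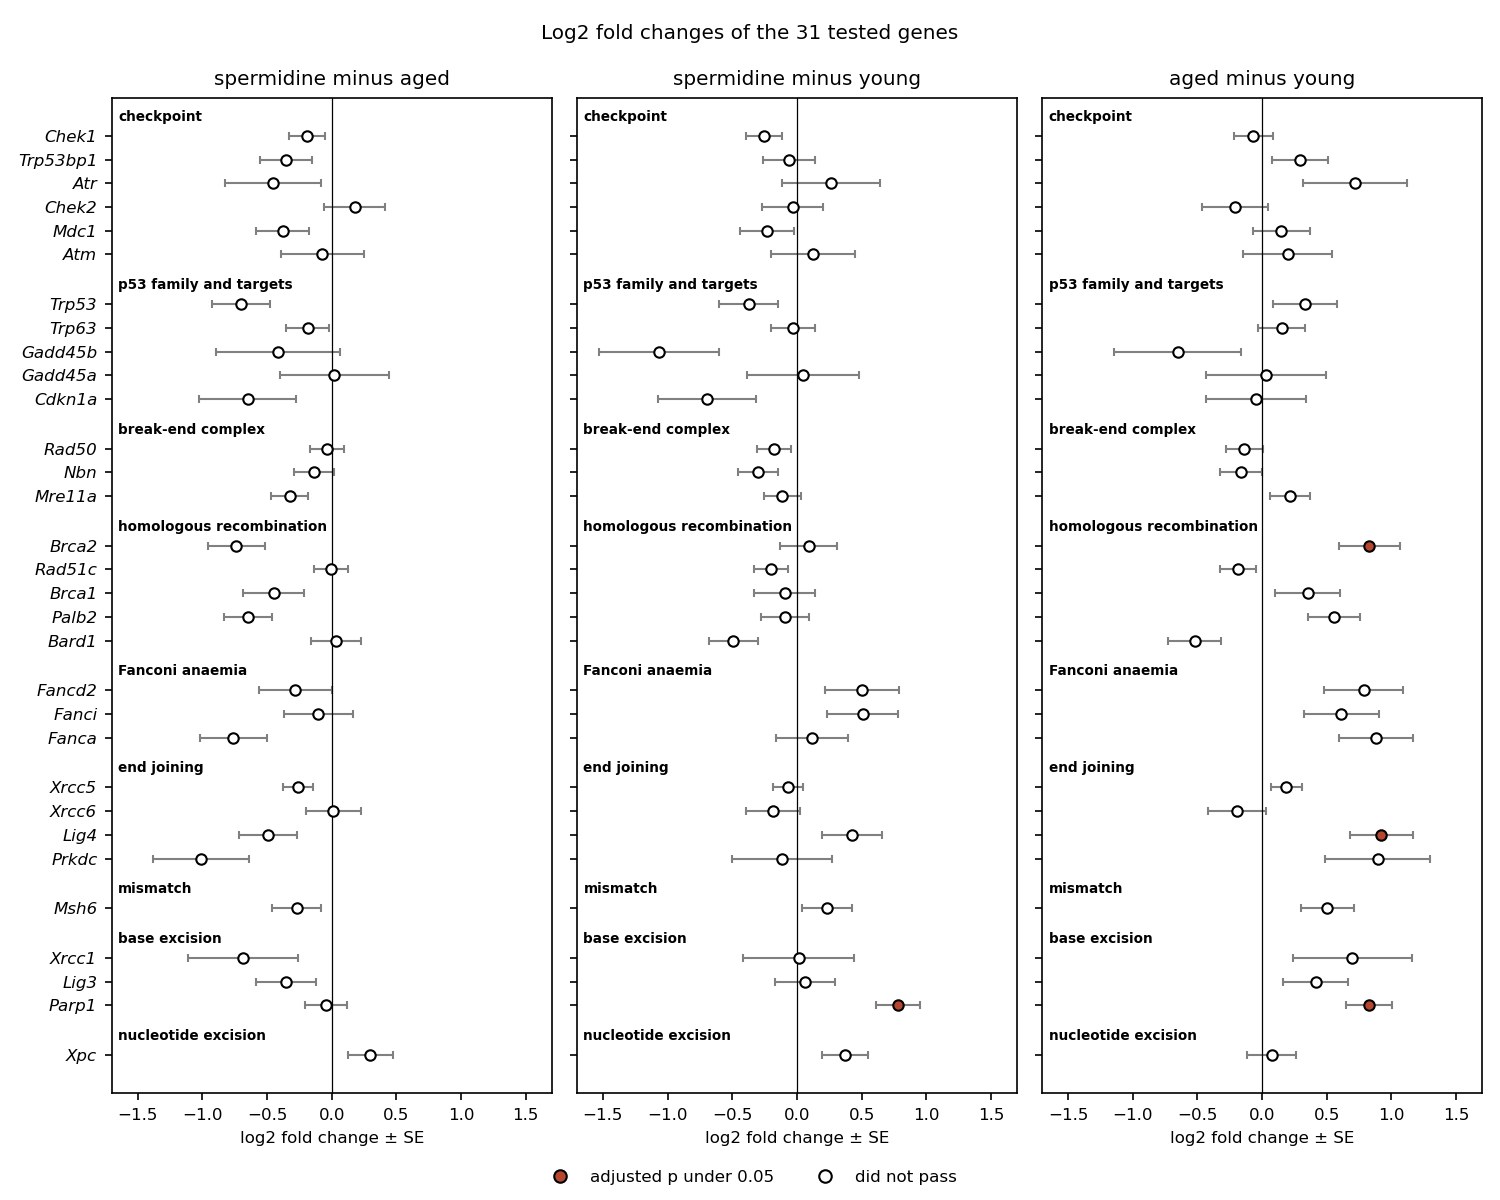
Log2 fold change with its SE for the 31 tested genes, by pathway, in panels for spermidine minus aged, spermidine minus young and aged minus young, with filled points for genes that passed. Parp1, Lig4 and Brca2 are filled for aged minus young and Parp1 alone for spermidine minus young. No point is filled for spermidine minus aged, where 26 of 31 points lie left of 0.

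The base excision and strand break genes held the smallest adjusted p of the list. Parp1 (Gene ID 11545) had 7.64, 7.22, 6.88 and 6.90 CPM in spermidine libraries, 8.34, 6.25 and 7.56 CPM in aged libraries and 4.33, 4.45 and 3.69 CPM in young libraries. Every spermidine and aged library lay above every young library, and the spermidine values fell within the range of the aged ones. The difference passed for aged minus young (log2 fold change 0.83, SE 0.18, adjusted p = 0.00984) and for spermidine minus young (log2 fold change 0.78, SE 0.17, adjusted p = 0.0179). Between spermidine and aged oocytes the log2 fold change was -0.04, SE 0.16, with adjusted p = 0.889. The aged minus young call held in 17 of 18 alternative settings, with values of 0.62 to 0.97 and adjusted p of 0.000517 to 0.0596, and was lost without young replicate 3 (0.70, adjusted p = 0.0596). The spermidine minus young call was lost without young replicate 1, young replicate 3, spermidine replicate 1 or spermidine replicate 2, where the values were 0.77, 0.65, 0.71 and 0.74 and the adjusted p 0.0889, 0.125, 0.0570 and 0.0697. Without aged replicate 1 the values were 0.69 (adjusted p = 0.0284) for aged minus young and 0.74 (adjusted p = 0.0156) for spermidine minus young.

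Xrcc1 encodes the scaffold that gathers strand break repair proteins, and Lig3 the ligase that works with it and that also serves mitochondrial DNA. Xrcc1 had 13.1, 12.4, 12.5 and 30.8 CPM in spermidine libraries, 9.74, 34.6 and 38.5 CPM in aged libraries and 17.0, 20.3 and 13.7 CPM in young libraries. Its libraries split within groups, with aged replicates 2 and 3 and spermidine replicate 4 high and the rest low, and the aged minus young value of 0.70, SE 0.46, did not pass (adjusted p = 0.295). Xrcc1 is the gene of highest GC content among the 31, at 59.3% of transcript bases. Across all tested genes, the deviations of those 3 libraries correlated with GC content at 0.289, 0.412 and 0.231, and the part of this in the Xrcc1 values was not tested. Lig3 averaged 15.1 ± 5.87 CPM in aged oocytes and 11.4 ± 0.624 CPM in young oocytes (SD, n = 3 each), and the aged mean was carried by aged replicate 1 at 21.9 CPM. Lig3 averaged 11.9 ± 2.40 CPM in spermidine oocytes (SD, n = 4), and it passed in none of the comparisons.

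Among the end joining genes, Lig4 (Gene ID 319583), whose product seals the ends together with Xrcc4, had 16.4, 12.4, 11.3 and 11.0 CPM in spermidine libraries, 24.2, 15.2 and 14.7 CPM in aged libraries and 7.23, 10.2 and 11.1 CPM in young libraries. Every aged library lay above every young library, while spermidine libraries overlapped both. Lig4 rose in aged relative to young oocytes (log2 fold change 0.92, SE 0.24, adjusted p = 0.0239). Spermidine minus aged gave -0.50, SE 0.22, adjusted p = 0.199, and spermidine minus young gave 0.43, SE 0.23, adjusted p = 0.328, and the spermidine mean of 12.8 ± 2.46 CPM lay between the other 2 means without a call on either side. The aged minus young call was lost without aged replicate 1 (0.61, adjusted p = 0.0662) and without any 1 of the young libraries (0.73 to 1.00, adjusted p from 0.0504 to 0.114). It held without aged replicate 1 and spermidine replicate 1 together (0.60, adjusted p = 0.0331), and over all 18 alternatives the adjusted p ran from 0.00562 to 0.114.

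Neither Ku gene passed in any comparison. Xrcc5 had 155 to 172 CPM in spermidine libraries, 187 to 216 CPM in aged libraries and 159.7 to 187 CPM in young libraries. The aged libraries did not overlap the other groups, but the differences were small and did not pass (-0.26 for spermidine minus aged, 0.19 for aged minus young). Xrcc6 averaged 50.9 ± 10.7 CPM in spermidine oocytes (SD, n = 4), 50.5 ± 13.8 CPM in aged oocytes and 57.8 ± 7.22 CPM in young oocytes (SD, n = 3 each), with all groups overlapping. Prkdc, the longest transcript of the list at 12647 bases, had 10.2, 3.71 and 3.30 CPM in aged libraries and 2.90, 2.26 and 4.18 CPM in young libraries. The aged value of 10.2 CPM belongs to replicate 1 alone, and the other 2 aged libraries fell inside the young range. Its aged minus young value was 0.89 with that library and 0.13 without it, and its spermidine minus aged value -1.01 with it and -0.30 without it. With 2.27 to 3.49 CPM in spermidine libraries, it passed in no comparison.

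In homologous recombination, Brca2 (Gene ID 12190) had 101, 79.0, 78.3 and 74.9 CPM in spermidine libraries, 204, 107 and 105 CPM in aged libraries and 69.8, 81.1 and 83.5 CPM in young libraries. Aged replicate 1 held nearly as much as the other 2 aged libraries together, yet those still lay above every young and every spermidine library. Brca2 rose in aged relative to young oocytes (log2 fold change 0.83, SE 0.24, adjusted p = 0.0313), while spermidine minus aged (-0.74, SE 0.22, adjusted p = 0.0692) did not pass and spermidine minus young was 0.09. Without aged replicate 1 the aged minus young value was 0.40 (adjusted p = 0.1000), and it was 0.39 (adjusted p = 0.0481) without spermidine replicate 1 as well. The call was also lost without any 1 of the young libraries (0.72 to 0.86, adjusted p from 0.0673 to 0.133), without spermidine replicate 2 (0.81, adjusted p = 0.0539) and when only aged and young libraries were fitted (0.79, adjusted p = 0.0685). Its adjusted p over the 18 alternatives ran from 0.00486 to 0.133. The lower level with spermidine passed in 2 of 18 alternatives, DESeq2 (-0.75, adjusted p = 0.0213) and correction for length and GC content (-0.65, adjusted p = 0.0106), where the adjusted p otherwise went up to 0.184.

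Palb2, whose product bridges Brca1 and Brca2, had 14.9, 14.1, 11.7 and 13.2 CPM in spermidine libraries, 28.1, 18.1 and 17.2 CPM in aged libraries and 13.3, 13.9 and 15.9 CPM in young libraries. As with Brca2, every aged library stood above every spermidine and every young library. The values of -0.65, SE 0.18, for spermidine minus aged and 0.56, SE 0.20, for aged minus young did not pass (adjusted p = 0.0621 and 0.0717). Spermidine minus aged passed as lower with DESeq2 (-0.66, adjusted p = 0.0149) and after correction for length and GC content (-0.60, adjusted p = 0.0400), with adjusted p up to 0.163 in others. Without aged replicate 1 it was -0.39, and aged minus young was 0.25 (adjusted p = 0.139 and 0.301). Brca1, which forms a ubiquitin ligase with Bard1, had 56.9, 31.9 and 26.0 CPM in aged libraries and 29.9, 28.5 and 31.6 CPM in young libraries, so that aged replicate 1 stood far above the young range and the other 2 aged libraries just above and just below it. Bard1, its partner gene, had 5.56, 4.42, 4.62 and 4.76 CPM in spermidine libraries, 6.21, 3.98 and 4.04 CPM in aged libraries and 6.91, 6.61 and 6.94 CPM in young libraries. Every spermidine and every aged library lay below every young library, with values of -0.49, SE 0.19, for spermidine minus young and -0.52, SE 0.21, for aged minus young. Neither passed (adjusted p = 0.170 and 0.0956), but aged minus young passed as lower without aged replicate 1 (-0.81, adjusted p = 0.0160), and both passed without aged replicate 1 and spermidine replicate 1 together (-0.59, adjusted p = 0.0420 for spermidine minus young and -0.81, adjusted p = 0.00914 for aged minus young). Both also passed after correction for length and GC content (-0.56, adjusted p = 0.0298 and -0.65, adjusted p = 0.0142). Over all alternatives the adjusted p ran up to 0.492 and 0.336. Rad51c, another gene of homologous recombination, had 21.3 to 26.3 CPM in spermidine libraries, 22.3 to 24.5 CPM in aged libraries and 25.5 to 28.4 CPM in young libraries. Every aged library lay below every young library, but the difference was small (-0.19, SE 0.14, adjusted p = 0.354). Rad51c passed in no comparison.

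**Figure D3:**
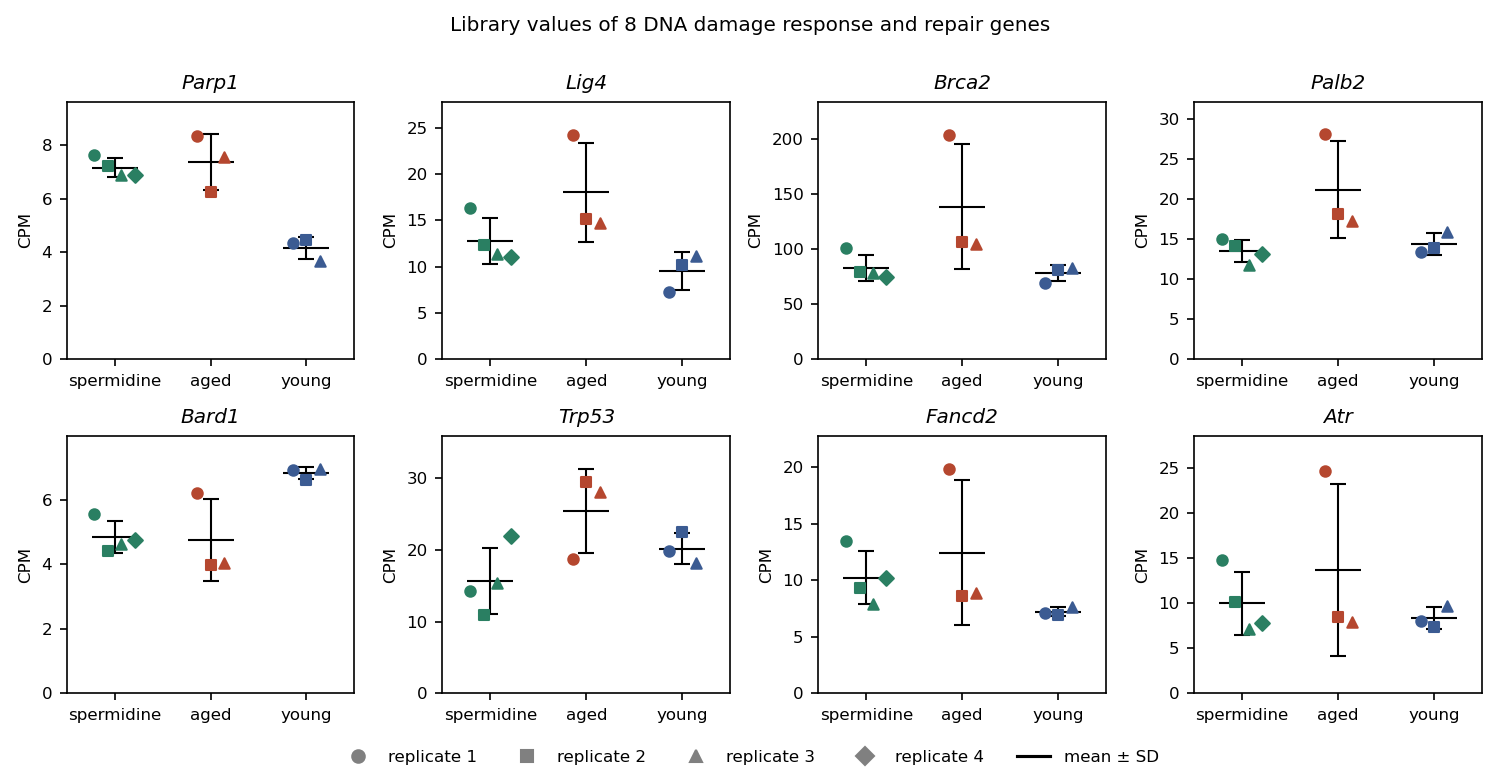
CPM of 8 genes in every library, with replicate numbers as symbols and the mean and SD as bars, in spermidine (n = 4), aged (n = 3) and young (n = 3) oocytes. Parp1 libraries of the spermidine and aged groups lie at 6.25 CPM and above, and those of the young group at 4.45 CPM and below. Aged replicate 1 is the highest library for Lig4, Brca2, Palb2, Fancd2 and Atr.

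The upstream sequence of the 3 genes that rose in aged oocytes is shown so that the letters these promoters do and do not share can be read. Each line gives the 250 bases before the annotated transcription start, 5′ to 3′ on the strand of the gene, from RefSeq on GRCm38.p6. Capitals mark the letters of a CCAAT box, a GC box (GGGCGG), an E2F motif (TTTCCCGC or TTTGGCGC) or CACGTG on either strand. Lig4 holds none of them in the window shown, while the window of its other start holds 2 GC boxes.
Parp1, chr1:180568641-180568890, plus strand: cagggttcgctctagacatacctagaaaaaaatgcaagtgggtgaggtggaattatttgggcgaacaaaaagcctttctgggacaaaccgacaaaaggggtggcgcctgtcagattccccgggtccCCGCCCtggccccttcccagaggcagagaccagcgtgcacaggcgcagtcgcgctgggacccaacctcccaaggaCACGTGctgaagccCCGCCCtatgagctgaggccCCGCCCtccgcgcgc
Brca2, chr5:150522371-150522620, plus strand: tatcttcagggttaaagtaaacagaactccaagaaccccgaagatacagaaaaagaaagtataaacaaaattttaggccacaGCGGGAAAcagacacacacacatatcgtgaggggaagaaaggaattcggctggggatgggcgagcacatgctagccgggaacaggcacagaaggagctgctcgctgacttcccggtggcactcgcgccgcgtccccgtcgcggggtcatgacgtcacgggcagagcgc
Lig4, the start farther upstream of 2 annotated, chr8:9977681-9977930, minus strand: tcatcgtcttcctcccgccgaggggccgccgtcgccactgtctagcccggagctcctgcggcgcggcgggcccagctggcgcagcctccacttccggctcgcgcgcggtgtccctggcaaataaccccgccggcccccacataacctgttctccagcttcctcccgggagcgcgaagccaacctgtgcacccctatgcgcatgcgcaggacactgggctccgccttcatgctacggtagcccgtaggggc

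Promoters were found for 26 of the 32 genes, 29 in all because some genes have more than 1 start. A GC box was present in 17 of them (58.6%), against 32.7% of the 32851 promoters of the table. A CCAAT box was present in 13 (44.8% against 33.8%), and CACGTG and an E2F motif in 5 each (17.2% against 6.02% and 1.30%). None of these motifs contains another, though a base can belong to 2 matches. The table covers genes of every kind, so the shares describe letters in a window and are no test. Among the genes that rose, Parp1 carried 3 GC boxes and 1 CACGTG and Brca2 carried 1 E2F motif.

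The Fanconi anaemia genes encode the pathway that unlocks cross-linked DNA. Fancd2, which forms with Fanci the dimer that the pathway activates, had 13.4, 9.32, 7.94 and 10.2 CPM in spermidine libraries, 19.8, 8.64 and 8.88 CPM in aged libraries and 7.10, 6.97 and 7.65 CPM in young libraries. Young libraries lay below all others, but aged replicate 1 held more than both other aged libraries together, and the value of 0.78, SE 0.31, for aged minus young did not pass (adjusted p = 0.0924). It was 0.23 without aged replicate 1 (adjusted p = 0.474). Fanci means followed the same order, with 8.07 ± 2.17 CPM in spermidine oocytes (SD, n = 4), 8.67 ± 3.48 CPM in aged oocytes and 5.69 ± 0.405 CPM in young oocytes (SD, n = 3 each). Aged replicate 1 held 12.6 CPM of Fanci, against 6.14 and 7.23 CPM in aged replicates 2 and 3. The aged minus young value of Fanci, 0.61, SE 0.29, did not pass (adjusted p = 0.153), and it went down to 0.19 over the 18 alternatives. Fanca, a subunit of the core complex, had 2.05, 1.67, 1.78 and 1.15 CPM in spermidine libraries, 3.84, 2.65 and 1.98 CPM in aged libraries and 1.57, 1.36 and 1.69 CPM in young libraries. Its aged minus young value of 0.88, SE 0.29, narrowly missed the threshold (adjusted p = 0.0519) and passed in 3 of 18 alternatives, with the replicate number as a block (adjusted p = 0.0460), without aged replicate 3 (0.0362) and without spermidine replicate 4 (0.0390), up to 0.206 in others. It was 0.55 without aged replicate 1 (adjusted p = 0.200). Fanca counts were low, at 34 to 38 in young libraries and 54 to 115 in aged libraries.

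Of the checkpoint genes, 0 of 6 passed in any comparison by edgeR, and 0 of 6 had an unadjusted p under 0.05 in any of the 3 comparisons. Over all genes that share was 34.7% for aged minus young, 24.2% for spermidine minus aged and 20.0% for spermidine minus young. Atr, the kinase that answers single-stranded DNA at stalled forks, had 14.8, 10.1, 7.17 and 7.82 CPM in spermidine libraries, 24.7, 8.45 and 7.96 CPM in aged libraries and 8.06, 7.32 and 9.65 CPM in young libraries. Aged replicate 1 stood alone, and the other 2 aged libraries lay inside the young range. Its aged minus young value was 0.72, and -0.07 without aged replicate 1. Atm, the kinase of double-strand breaks, had 4.80, 2.08 and 1.72 CPM in aged libraries and 2.99, 2.08 and 2.49 CPM in young libraries, again with aged replicate 1 alone above the young range. The aged minus young value of Atm was 0.20, and -0.44 without that library. Chek1 had 395, 454, 479 and 485 CPM in spermidine libraries, 543, 538 and 470.2 CPM in aged libraries and 586, 439.6 and 600.3 CPM in young libraries. The groups overlapped throughout, with -0.19, SE 0.14, for spermidine minus aged and -0.07, SE 0.15, for aged minus young. Chek2, the kinase that in mouse oocytes relays breaks to p63, lay between 1.33 and 2.30 CPM in all libraries. Mdc1, which binds modified histone at breaks, averaged 4.38 ± 0.541 CPM in spermidine oocytes (SD, n = 4), 5.70 ± 1.48 CPM in aged oocytes and 5.14 ± 0.726 CPM in young oocytes (SD, n = 3 each). Trp53bp1, which steers breaks to end joining, had 47.2, 45.9, 64.8 and 61.1 CPM in spermidine libraries, 52.1, 82.2 and 75.3 CPM in aged libraries and 46.4, 70.3 and 54.4 CPM in young libraries, and here aged replicate 1 was the lowest aged library although the transcript is long.

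Rad50, Mre11a and Nbn encode the complex that first holds broken ends. Rad50 stood at 66.6 to 84.8 CPM in spermidine libraries, 69.4 to 86.7 CPM in aged libraries and 81.9 to 93.1 CPM in young libraries. Nbn averaged 12.9 ± 1.47 CPM in spermidine oocytes (SD, n = 4), 14.2 ± 0.789 CPM in aged oocytes and 15.9 ± 2.14 CPM in young oocytes (SD, n = 3 each). Mre11a, the nuclease, was the 1 gene of the complex whose aged libraries stood above both other groups, at 13.0 to 15.0 CPM against 9.81 to 12.2 CPM with spermidine and 11.3 to 12.9 CPM in young oocytes. Its values of -0.33 for spermidine minus aged and 0.21 for aged minus young did not pass (adjusted p = 0.193 and 0.345).

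In the p53 family, Trp53 had 14.3, 10.9, 15.4 and 21.9 CPM in spermidine libraries, 18.7, 29.4 and 28.1 CPM in aged libraries and 19.9, 22.4 and 18.2 CPM in young libraries. Aged replicates 2 and 3 were the 2 highest libraries and spermidine replicates 1, 2 and 3 the 3 lowest, while aged replicate 1 and spermidine replicate 4 lay within the young range. Spermidine minus aged was -0.70, SE 0.23, and did not pass (adjusted p = 0.0870). It passed as lower in 5 of 18 alternatives, DESeq2 (adjusted p = 0.0350), the replicate block (0.0336), correction for length and GC content (0.0263), without aged replicate 1 (0.0370) and without spermidine replicate 4 (0.0243), with values of -0.91 to -0.57 and adjusted p up to 0.243 over all of them. Trp63 encodes p63, whose transactivating form guards the mouse oocyte pool. It had 7.22, 5.69, 6.68 and 6.14 CPM in spermidine libraries, 8.21, 7.35 and 6.42 CPM in aged libraries and 5.71, 7.36 and 6.67 CPM in young libraries, and the groups overlapped, with -0.19, SE 0.17, for spermidine minus aged and 0.15, SE 0.18, for aged minus young.

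The damage-induced targets among the 32 genes, Cdkn1a and the Gadd45 genes, were near the floor, with the lowest mean CPM of the list. This does not cover other p53 targets. Cdkn1a had 0.241, 0.254, 0.364 and 0.307 CPM in spermidine libraries, 0.334, 0.341 and 0.697 CPM in aged libraries and 0.415, 0.503 and 0.489 CPM in young libraries, or 7 to 19 counts a library. The stress gene Gadd45a had 0.602, 0.399, 0.202 and 0.767 CPM in spermidine libraries, 0.501, 0.455 and 0.514 CPM in aged libraries and 0.691, 0.323 and 0.445 CPM in young libraries. Gadd45b had 0.722, 0.508, 0.243 and 1.42 CPM in spermidine libraries, 0.501, 1.02 and 1.39 CPM in aged libraries and 1.57, 1.36 and 1.65 CPM in young libraries, with -1.07, SE 0.46, for spermidine minus young (adjusted p = 0.224), and spermidine replicate 4 stood above the other 3. None of these passed in any comparison, and differences among so few counts were hard to detect at this depth. Gadd45g had 0 to 2 counts in each of the 10 libraries. As the number of oocytes per library is not given, fewer oocytes with a transcript and less of it in each cannot be told apart for any gene here.

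Mismatch repair and nucleotide excision repair are represented by 1 gene each. Msh6, which recognises mismatched bases, had 40.4, 28.4, 27.9 and 28.6 CPM in spermidine libraries, 47.3, 34.5 and 31.7 CPM in aged libraries and 23.1, 25.5 and 31.6 CPM in young libraries. Every aged library lay above every young library, but the value of 0.50, SE 0.21, did not pass (adjusted p = 0.106), and spermidine replicates 2, 3 and 4 lay within the young range. Without aged replicate 1 the value was 0.27 (adjusted p = 0.350). Xpc, which recognises distorted DNA, had 4.63, 4.31, 3.48 and 3.76 CPM in spermidine libraries, 3.40, 2.99 and 3.49 CPM in aged libraries and 2.86, 3.41 and 3.11 CPM in young libraries. It was 1 of 5 genes whose value lay above 0 for spermidine minus aged (0.30, SE 0.18, adjusted p = 0.321), and its spermidine libraries lay above every young library (0.37, SE 0.18, adjusted p = 0.266).

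How far aged replicate 1 departed from its group followed transcript length across the list. Among the 31 genes, the log2 ratio of aged replicate 1 to the mean of aged replicates 2 and 3 had a Spearman rho of 0.754 with transcript length and -0.526 with GC content. It is a description of 1 library, since the genes share that library and length and GC content go together. The ratio was highest for Atr at 1.59, Prkdc at 1.55 and Atm at 1.33, and lowest for Xrcc1 at -1.91 and Gadd45b at -1.27. For the genes that rose it was 0.94 for Brca2, 0.70 for Lig4 and 0.27 for Parp1. In spermidine replicate 1, against the other 3 spermidine libraries, rho was 0.469 with length. The median transcript of the list was 4485 bases long, against 3069 bases over all tested genes with a length. Without aged replicate 1 alone, Parp1 passed for aged minus young and Lig4 (0.61, adjusted p = 0.0662) and Brca2 (0.40, adjusted p = 0.1000) did not. Without both libraries, aged minus young gave 0.68 for Parp1 (adjusted p = 0.0221), 0.60 for Lig4 (adjusted p = 0.0331) and 0.39 for Brca2 (adjusted p = 0.0481). Bard1 passed as lower under both omissions.

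**Figure D4:**
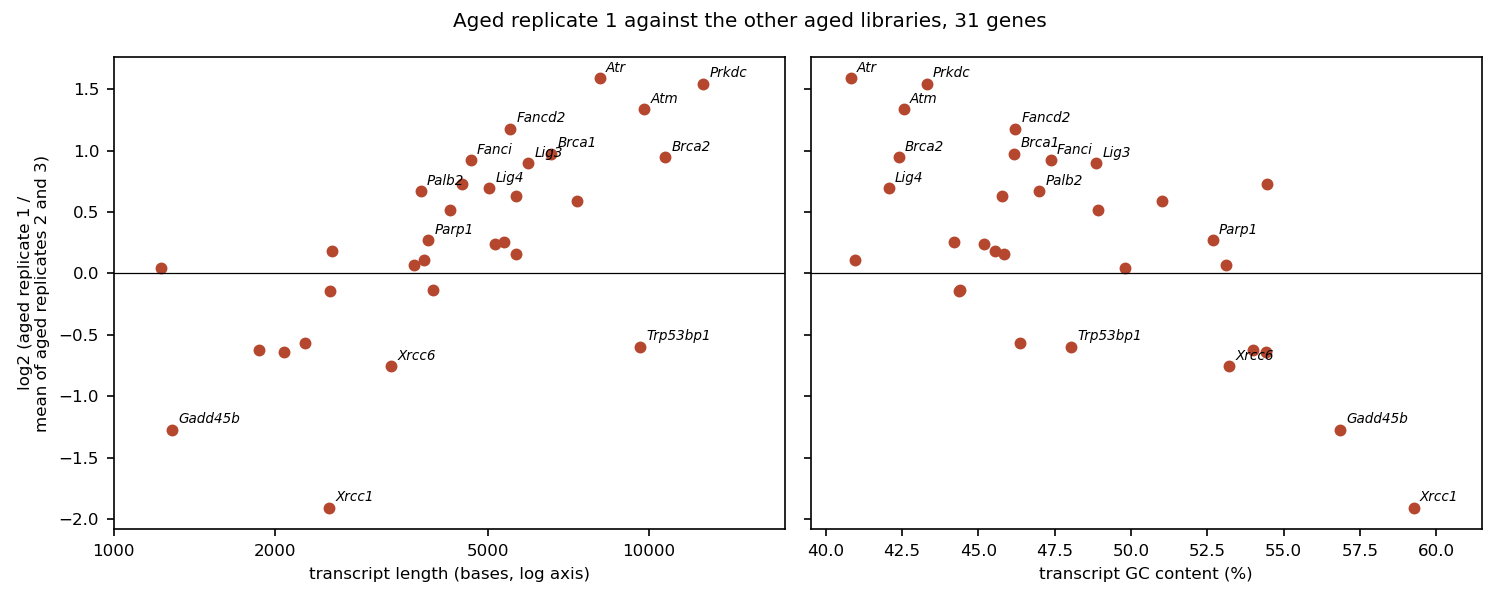
Log2 ratio of aged replicate 1 to the mean of aged replicates 2 and 3 for the 31 tested genes, against transcript length in bases on a log axis and against transcript GC content in percent, with some of the genes named. The ratio runs from -1.91 for Xrcc1 to 1.59 for Atr, and Parp1 lies at 0.27, close to 0.

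Other genes of the same pathways, taken from a longer list, passed in both directions between aged and young oocytes. Of 117 tested, 6 rose and 8 fell in aged relative to young oocytes, 12.0% against the 17.8% of all genes. With scaling by total counts 6 rose and 0 fell, so the decreases named here did not pass under that scaling. After correction for length and GC content 8 rose and 3 fell, so most of these decreases did not pass there either. The partners of Lig4 were among those that passed, in both directions: Nhej1, which stimulates the ligase, rose (1.04, SE 0.18) and Xrcc4 fell (-0.66, SE 0.16). The end joining polymerase gene Polm rose, with 4.61 ± 0.429 CPM in aged and 1.49 ± 0.603 CPM in young oocytes (SD, n = 3 each). It was also higher with spermidine, at 4.25 ± 1.33 CPM (SD, n = 4), than in young oocytes (1.49, SE 0.30). Wee1, the kinase that restrains entry into division, had 7.88 ± 1.67 CPM in aged and 3.21 ± 0.718 CPM in young oocytes (SD, n = 3 each). It reached 9.50 ± 2.10 CPM with spermidine (SD, n = 4) and passed as higher against young in both comparisons (1.57 for spermidine and 1.30 for aged). The other 3 that rose in aged oocytes were Ddb1 (0.75, SE 0.18) of nucleotide excision repair, the p53 family gene Trp73 (0.82, SE 0.26) and Usp28 (0.94, SE 0.24).

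The remaining decreases in aged oocytes were those of Rad1 (-0.63, SE 0.15), part of the checkpoint clamp, Rpa3 (-0.77, SE 0.17), a subunit of the single-strand binding complex, and Rad52 (-0.60, SE 0.19). Fancl (-0.65, SE 0.15) and Ube2t (-0.60, SE 0.14), the ligase and conjugating enzyme that modify Fancd2, both fell. Pcna (-0.39, SE 0.12), the sliding clamp, and Gtf2h2 (-0.49, SE 0.14) of the repair helicase complex completed the 8. Between spermidine and aged oocytes 3 of 117 passed, 2.56% against 4.86% of all genes. Rad1 rose with spermidine to 18.9 ± 1.12 CPM (SD, n = 4), against 11.5 ± 0.941 CPM in aged oocytes (SD, n = 3), and its young mean was 17.7 ± 2.16 CPM (SD, n = 3). Wdr48 (-0.73, SE 0.17), a cofactor of the enzyme that removes ubiquitin from Fancd2, fell with spermidine. Slx4, a scaffold of nucleases, also fell, to 2.41 ± 0.807 CPM (SD, n = 4), against 4.87 ± 0.692 CPM in aged oocytes (SD, n = 3, adjusted p = 0.0487). Between spermidine and young oocytes Msh3 (0.57, SE 0.14), of mismatch repair, rose and Wdr48 (-0.63, SE 0.17) fell, which with Wee1 and Polm made 4 of 117, 3.42% against 5.36% of all genes. With total count scaling, Wdr48 and Slx4 no longer passed in these comparisons. Xrcc4 and Usp28 lay outside the rule for named genes and were named after their values were seen.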

How the data were processed

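The authors deposited 1 table of expected counts, a value for each gene in each library, and 15.9% to 16.7% of the values in a library were not whole. The submitters' processing notes name RSEM 1.3.1, Bowtie2 2.3.4.3, DESeq2 1.4.5 and the build mm9, without role or order. Annotation and strand setting were not given in the sources used here, and reads of overlapping genes on opposite strands may be mixed. The deposited table also holds the authors' log2 fold changes with their p-values and q-values.

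Expected counts were rounded. Testing used edgeR 4.0.16 under R 4.3.3: filterByExpr, TMM factors, and a robust quasi-likelihood fit of all 10 libraries at once, checked on simulated counts. Benjamini-Hochberg adjustment covered all 12315 genes tested, at a threshold of 0.05. The SE is the one the F statistic implies. CPM use TMM-scaled totals. Length and GC content are those of the longest coding transcript of a gene in GENCODE vM21, which is on GRCm38 and not mm9, and 97.4% of tested genes had one. Coordinates are given only for RefSeq promoters, on the build of that table. Of 126 other pathway genes 125 were found, 2 under a newer symbol.

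There were 18 alternatives: RLE factors, total counts, no filter, DESeq2 1.42.0, a fit of just the groups compared, the replicate number as a block, correction for length and GC content (splines with 4 degrees of freedom in each library), omission of aged 1 together with spermidine 1, and omission of each library alone. Counts of other pathway genes under these were added after seeing the data. The members and lists were chosen with earlier results of these data known. Named genes were all 32 members, with every library's value for those that passed and for the p53 family, and among the other genes that passed the 2 of smallest p in each pathway and comparison. Plots were made in matplotlib 3.10.9.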

Additional observations from a re-analysis of the deposited data

Results flagged for a closer look

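In the group of 4 spermidine libraries, 5 of the 31 tested genes had 1 library far from the other 3; its gap to the nearest other library, divided by the range, was above Dixon's 95% critical value. Chance flags about 1 in 20 such groups. The 31 genes share the same 4 libraries and are not independent, so this rate is no test of the number flagged. In 4 of the 5 the library was spermidine replicate 1. Msh6 stood at 40.4 CPM there, against 27.9 to 28.6 CPM in the other 3 (gap over range 0.949), and Lig3 at 15.4 CPM, against 10.4 to 11.0 CPM (0.873). Brca2 stood at 101 CPM in that library, against 74.9 to 79.0 CPM (0.845). Nbn was the 1 gene lower there, at 10.7 CPM against 13.3 to 13.8 CPM (0.838). Xrcc1 was high in spermidine replicate 4 instead, at 30.8 CPM against 12.4 to 13.1 CPM (0.963). Groups of 3 libraries were not examined in this way, and the causes were not tested.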

How the results depend on the processing

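Of 93 member comparisons, 83 kept their side of the threshold in each of the 18 alternatives, and in no alternative did a called value change sign. Members called for aged minus young, 3 in all, ranged from 0 to 4 with 1 library left out, 0 without young replicate 3. For spermidine minus aged, where 0 passed, the number was 3 with DESeq2, 1 with a replicate block, 3 after correction for length and GC content, and 0 to 1 with 1 library left out. For spermidine minus young, where 1 passed, it was 2 after that correction, 2 when aged replicate 1 and spermidine replicate 1 were both left out, and 0 to 1 with 1 library left out. The cause was not tested.

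Over all genes, 2189 passed for aged minus young (827 to 2362 with 1 library left out), 598 for spermidine minus aged (99 to 1127) and 660 for spermidine minus young (283 to 874). Spermidine minus aged gave 259 with total counts, 1348 with DESeq2, 124 with only the 2 groups and 998 with a replicate block, and spermidine minus young gave 1053 with DESeq2. With total counts the median over all genes lay at 0.24 (log2) in place of 0.10 for aged minus young and at 0.23 in place of 0.04 for spermidine minus young. Other pathway genes called numbered 14 for aged minus young (5 to 15 with 1 library left out, 6 with total counts). After correction for length and GC content they numbered 11, with 8 higher and 3 lower. For spermidine minus aged they numbered 3 (0 to 4, with 1 under total counts, 8 with DESeq2, 0 with only the 2 groups, 5 with a replicate block and 5 after correction). For spermidine minus young they numbered 4 (1 to 5, and 7 after correction).

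Libraries with the same number did not consistently deviate together, with correlations of -0.261 to 0.377 over the 9 pairs. Only 1, 1 and 0 of 3 libraries correlated best with their own number for aged minus young, spermidine minus aged and spermidine minus young, so the replicate numbers were not taken to pair samples. With the replicate block 4, 1 and 1 members were called in these comparisons. Counts in the range of Cdkn1a and the Gadd45 genes limit what can be detected.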

Other observations

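The authors' deposited table, whose fold changes are by their headers aged over young and spermidine over aged, has the same 3 members below a q-value of 0.05 for aged over young and 0 for spermidine over aged. In the authors' deposited table Parp1 has a log2 fold change of 0.79 (q = 0.0135), Lig4 0.89 (q = 0.0151) and Brca2 0.79 (q = 0.0364) for aged over young. For spermidine over aged the authors' deposited table gives Palb2 -0.67 (q = 0.0656), Brca2 -0.75 (q = 0.0859) and Trp53 -0.72 (q = 0.117).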
